A study of Mus musculus with 8 samples.

Results

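The genes described here are 43 genes of the actin cytoskeleton and of cell motility, taken by symbol from a list that was drawn up with earlier results of these data known. All 43 were among the 24421 genes of the count table and all 43 were tested; Diaph1 was found under its older symbol. Bone marrow neutrophils of C57BL/6 mice at post natal week 8, isolated with magnetic beads, were either WT or Padi4 KO (Padi4-/-, a germline deletion that includes exon 1). They were left unstimulated or given 1 µg/ml of R848, an agonist of TLR7, for 6 h. Each of the 4 groups had 2 RNA sequencing libraries. The titles of the unstimulated libraries give 0 h whereas the methods give 6 h of incubation, so if the titles hold, each R848 response also contains the effect of culture. The labels do not say whether duplicates came from separate mice, and the p-values then measure only the spread between these libraries. Since the cells were a bulk preparation and the deletion is present in every cell of the mouse, fewer cells of a type and less RNA per cell cannot be told apart.

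Actin cycles between monomers and filaments, and a crawling leukocyte builds filaments at its front and contracts them at its rear. The Arp2/3 complex starts branched filaments when WASP or WAVE proteins activate it downstream of Rac and Cdc42, formins and Ena/VASP proteins elongate unbranched filaments, and cofilin, gelsolin and capping proteins sever or close them. Bundling proteins, myosin II and linkers to integrins and to the membrane turn this filament network into force, adhesion and shape change, which neutrophils need to leave the blood and to engulf microbes.

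The promoters of several actin genes hold CArG boxes, the element bound by serum response factor, a regulator of cytoskeletal genes that is itself sensitive to the pool of free actin monomers. Windows from 250 bases before to 50 bases after the annotated start were taken from RefSeq on GRCm38.p6, and 40 of the 43 genes had an entry (Actb, Diaph1 and Rac1 had none). A CArG box, whose motif is symmetric so that 1 search covers both strands, was present in 4 of these 40 windows, or 10%, against 488 of the 27025 windows of all genes, or 1.81%. The 4 genes were Actg1, Myl6, Arpc4 and Vcl, and a stretch of 100 bases holding each box is shown 5′ to 3′ on the strand of the gene, with the CArG box in capitals (that of Arpc4 lies at the far end of its window and opens the stretch), because Actg1 was the gene whose R848 response differed most stably between the genotypes and the other 3 share its motif.
Actg1 (chr11:120348531-120348630, minus strand): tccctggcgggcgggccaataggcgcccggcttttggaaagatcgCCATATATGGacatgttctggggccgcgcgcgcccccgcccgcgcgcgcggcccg
Myl6 (chr10:128493010-128493109, minus strand): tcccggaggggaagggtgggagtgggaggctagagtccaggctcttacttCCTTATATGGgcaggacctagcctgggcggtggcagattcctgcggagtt
Arpc4 (chr6:113377863-113377962, plus strand): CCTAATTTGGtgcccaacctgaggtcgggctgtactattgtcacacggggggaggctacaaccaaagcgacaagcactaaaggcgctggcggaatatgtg
Vcl (chr14:20929148-20929247, plus strand): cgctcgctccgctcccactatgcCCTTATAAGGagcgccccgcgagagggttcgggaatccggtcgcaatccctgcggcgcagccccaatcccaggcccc
The kappa B consensus, the motif of the NF-kB factors that act downstream of TLR7, matched on either strand in 2 of the 40 windows (5%, Myl12a and Flna) and in 1388 of all 27025 (5.14%). These matches describe the letters of the windows and not binding. The 4 genes with a CArG box did not move alike, as their values below show.

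The libraries held between 562446 and 1177972 counts on genes, 87.0% to 89.5% of the reads in the table. A count of 3 in a library stood for 2.55 to 5.33 CPM (counts scaled to a fixed library total), and this floor covers counting error only. Duplicates differed most in WT after R848, where the chi-square statistic over its degrees of freedom was 1.67, against 1.13 in unstimulated WT, and it was the highest of the 4 groups. The count of Padi4 itself was 590 and 527 in the unstimulated WT pair against 40 and 54 in the Padi4 KO pair. After R848 it was 166 and 234 against 34 and 21, so every Padi4 KO library lay below every WT library. Of 12 neutrophil markers, 11 were in the table and all 11 had counts in every library (Ly6g was not analysed here). The summed neutrophil markers reached 151535 to 157754 CPM (here of library totals) in unstimulated WT, 127335 to 141468 in WT after R848, 123780 to 125320 in unstimulated Padi4 KO and 102636 to 103287 in Padi4 KO after R848. Markers of other cells were present at far lower sums. The 9 monocyte and macrophage markers, all with counts, went from 1058 to 1079 CPM in unstimulated WT to 6064 to 6161 after R848, and from 1908 to 1954 to 5761 to 5939 in Padi4 KO. These markers did not move alike: in both genotypes Mpeg1, Adgre1, Csf1r and Cx3cr1 were higher after R848, while Ccr2, Ly86, Irf8 and F13a1 were lower. In WT, Adgre1 went from 40.6 and 39.1 CPM to 2032 and 1991, and F13a1 from 167 and 194 to 39.3 and 49.3. The erythroid markers stood at 85.3 to 103 and 19.4 to 24.6 CPM in WT and at 968 to 1026 and 1186 to 1211 in Padi4 KO, unstimulated and after R848, with the globin genes Hba-a1 and Hbb-bs at 0. The stromal and endothelial markers stood at 219 to 251 and 35.9 to 41.0 CPM in WT and at 596 to 751 and 48.4 to 51.1 in Padi4 KO, with Emcn at 0.

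The 43 genes together took 6.38% and 6.31% of the counts on genes in unstimulated WT and 6.53% and 6.57% in WT after R848. In Padi4 KO they took 5.71% and 5.75% unstimulated and 6.09% and 6.06% after R848. Both Padi4 KO pairs thus lay below both WT pairs, and within each genotype the R848 pair lay above the unstimulated pair. The levels of the single genes spanned a wide range. Per kilobase of exon and scaled between libraries, the highest levels in unstimulated WT were those of Tmsb4x, the main thymosin that holds actin monomers in reserve, at 4350 CPM per kb, and of Actb, the cytoplasmic beta actin, at 3214 CPM per kb. Arhgdib followed at 1536 CPM per kb and Coro1a, the leukocyte coronin, at 1042 CPM per kb. Actn4 was at 36.7 CPM per kb and Evl, an Ena/VASP protein, was last at 2.26. On average over the libraries, 42 of the 43 genes had at least 10 counts and 41 at least 100, the exceptions being Evl and Tmsb10. Actb, Tmsb4x, Tmsb10, Pfn1, Cfl1, Myl6, Rhoa, Rac1 and Cdc42 have near-identical copies in the genome, so that their counts are uncertain to that extent. Copies were not searched for here, so the other genes, Actg1 among them, cannot be taken as free of this uncertainty. The positions used for Myl12a and Myl12b do not overlap. The annotation also lists an entry named Myl12b that overlaps Myl12a, so the counts of these genes are uncertain as well.

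**Figure D1:**
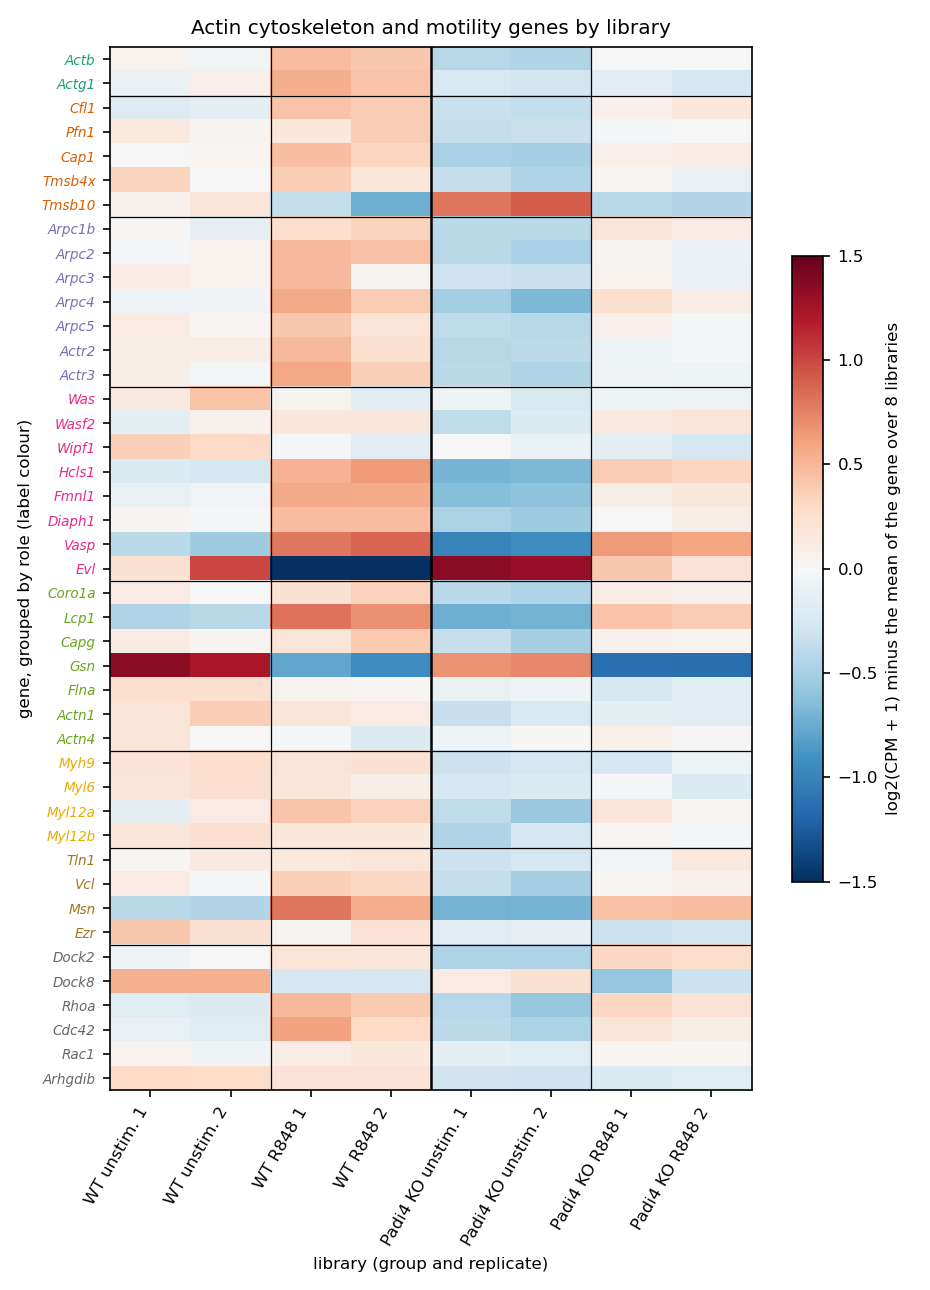
Heat map of the 43 genes (rows, grouped by role) in the 8 libraries (columns). Colour gives log2(CPM + 1) after TMM scaling minus the mean of the gene over the 8 libraries, cut at 1.5 in either direction. Most rows are palest or bluest in the unstimulated Padi4 KO libraries and reddest in WT after R848, while Gsn, Dock8, Tmsb10 and Evl run against that pattern.

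The response to R848 was compared first within each genotype. In WT, 22 of the 43 passed upward and 7 downward at an adjusted p below 0.1 (quasi-likelihood test of edgeR, adjusted by Benjamini-Hochberg over all 12254 genes tested), where 13.5% of all genes tested were called higher and 16.0% lower. In Padi4 KO, 29 passed upward and 4 downward, against 19.2% and 15.9% of all genes. Most of these changes were small. Changes of more than 2-fold in WT were found for 3 genes upward and 2 downward (7.18% and 10.8% of all genes), and in Padi4 KO for 4 upward and 3 downward (8.09% and 8.83%). The genes of the list are abundant, and among the 1578 genes with at least 100 counts on average the shares called were larger, at 43.5% higher and 25.5% lower in WT and 53.0% and 20.6% in Padi4 KO. The same 21 genes passed upward in both genotypes and 4 (Evl, Gsn, Dock8 and Tmsb10) downward in both. The share of all genes called in both genotypes was not counted, so this overlap is not read as a trait of the list.

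The size of these responses depended on how the libraries were scaled to each other. With TMM scaling, the 43 genes had a median log2 fold change of 0.22 for WT and 0.37 for Padi4 KO, when that of all genes with at least 10 counts was -0.073 and 0.077. With scaling by library size alone, the median of all genes moved to -0.38 and -0.30 and that of the 43 genes to -0.089 and -0.0057, and the counts became 10 higher and 16 lower in WT and 13 higher and 14 lower in Padi4 KO. Of the calls made with TMM, 12 in WT and 16 in Padi4 KO were then lost, those of Actb and Cfl1 in Padi4 KO among them. The sign changed for 12 of the 43 genes in WT, 5 of them called, and for 15 in Padi4 KO, 8 of them called. Another scaling adds the same amount to every gene, so the distance between the 2 medians, 0.29 in WT and 0.29 in Padi4 KO, is nearly fixed by construction. Above the median of all genes lay 32 of the 43 genes in the WT response and 34 in that of Padi4 KO. Against the more abundant genes with at least 100 counts the distance was 0.061 in WT and 0.064 in Padi4 KO.

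**Figure D2:**
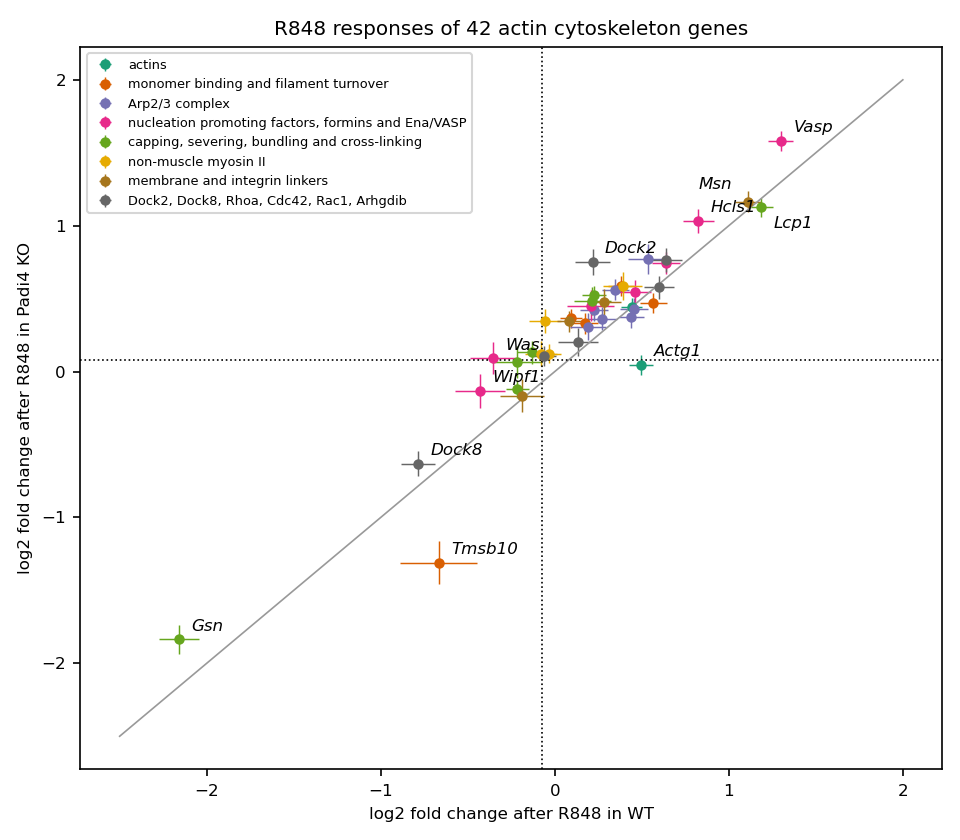
The log2 fold change after R848 in WT (horizontal axis) and in Padi4 KO (vertical axis) of 42 genes, with standard errors, coloured by role; Evl, which had 0 counts in WT after R848, is left out. The grey line marks equal responses and the dotted lines the medians of all genes with at least 10 counts, -0.073 and 0.077. Vasp, Msn, Lcp1 and Hcls1 lie at the upper right and Gsn, Tmsb10 and Dock8 at the lower left, with Actg1 below and Dock2 above the line.

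Both cytoplasmic actins rose after R848 in WT. Actb had 8888 and 8334 CPM (scaled between libraries by TMM factors, as are the CPM values of single genes from here on) in unstimulated WT and 11986 and 11416 after R848, while Padi4 KO gave 6375 and 6266 unstimulated and 8645 and 8556 after stimulation. In each genotype the stimulated pair lay above the unstimulated pair without overlap, with a log2 fold change of 0.44 in both (SE 0.06, adjusted p = 1.30e-11 in WT and 4.85e-12 in Padi4 KO by edgeR). Each SE given for a log2 fold change was derived from the F statistic of its test, so it is not independent of the p-value. Actg1, the gamma actin, had 1993 and 2236 CPM in unstimulated WT and 3113 and 2851 after R848, but 1795 and 1757 in unstimulated Padi4 KO and 1898 and 1769 after R848. Its WT pairs were well apart and its Padi4 KO pairs close to each other, at a log2 fold change of 0.50 in WT (SE 0.07, adjusted p = 4.55e-11) and 0.05 in Padi4 KO (SE 0.07, adjusted p = 0.662). Actg1 was the only one of the 43 genes that passed upward in WT and not in Padi4 KO.

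Among the monomer-binding and turnover proteins, 3 of 5 passed upward and 1 downward in WT, and 4 upward and 1 downward in Padi4 KO. Upward and downward calls made up 13.5% and 16.0% of all genes in WT and 19.2% and 15.9% in Padi4 KO, and 43.5% and 25.5%, and 53.0% and 20.6%, of those with at least 100 counts. Cfl1, the cofilin that severs and depolymerizes old filaments, rose by a log2 fold change of 0.57 in WT (SE 0.08) and 0.47 in Padi4 KO (SE 0.07). Cap1, which recycles monomers together with cofilin, rose by 0.38 and 0.59 (SE 0.07 each), but in WT did not pass with library size alone (0.072, adjusted p = 0.506). Pfn1, the profilin that feeds monomers to growing ends, passed in both genotypes at 0.17 and 0.33, but with library size alone its value turned to -0.13 in WT and -0.046 in Padi4 KO. Without the second library of either WT group Pfn1 did not pass in WT (adjusted p = 0.413 and 0.149), nor with filterByExpr (0.192), nor without either R848 library in Padi4 KO (0.137 and 0.115). Tmsb4x had 6643 and 5284 CPM in unstimulated WT and 6766 and 5981 after R848, while Padi4 KO gave 4116 and 3826 unstimulated and 5359 and 4856 after stimulation. Its WT pairs overlapped and its Padi4 KO pairs did not, and it passed in Padi4 KO at 0.36 (SE 0.06) and not in WT at 0.09. The value in Padi4 KO turned to -0.012 with library size alone and had an adjusted p of 0.225 without the first R848 library.
Tmsb10, the second thymosin, went the other way. It had 95.9 and 104 CPM in unstimulated WT and 71.4 and 54.9 after R848, while Padi4 KO gave 160 and 172 unstimulated and 67.5 and 67.1 after stimulation. The unstimulated Padi4 KO libraries were the highest of the 8, and after R848 the genotypes overlapped. The log2 fold change was -0.67 in WT (SE 0.22, adjusted p = 0.0143) and -1.31 in Padi4 KO (SE 0.15, adjusted p = 7.83e-18). The fall in WT was not called without its second R848 library, at -0.38 with an adjusted p of 0.403, nor with DESeq2, at -0.60 with one of 0.161. The stromal and endothelial marker sum, given above, was likewise highest in unstimulated Padi4 KO and lowest after R848, and its part in the Tmsb10 values was not tested.

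Most subunits of the Arp2/3 complex passed upward. Of the 7, 6 did so in WT and 7 in Padi4 KO, where 13.5% and 19.2% of all genes and 43.5% and 53.0% of those with at least 100 counts did. Over all 7 subunits, passed or not, the log2 fold changes ran from 0.19 to 0.53 in WT and from 0.31 to 0.77 in Padi4 KO. With library size alone, however, Arpc3 (-0.11), Arpc5 and Actr2 turned negative in WT, and Arpc3, Actr2 and Actr3 in Padi4 KO. With that scaling none of the 6 calls in WT was kept, and in Padi4 KO those of Arpc1b and Arpc4 were kept and the other 5 lost. The complex summed to 7145 and 6852 CPM in unstimulated WT and 9448 and 8515 after R848, while Padi4 KO gave 5197 and 5068 unstimulated and 7154 and 6798 after stimulation. Arpc4, a core subunit and one of the genes with a CArG box, had 325 and 324 CPM in unstimulated WT and 502 and 441 after R848, while Padi4 KO gave 236 and 212 unstimulated and 399 and 360 after stimulation. Its rise was the largest of the complex in both genotypes (0.53, SE 0.11, and 0.77, SE 0.10), and with library size alone it was 0.23 in WT with an adjusted p of 0.129. Actr3 and Actr2, the actin-related subunits from which the new branch grows, rose by 0.44 and 0.27 in WT and 0.37 and 0.36 in Padi4 KO. In WT the subunit that did not pass was Arpc3, at 0.19 (SE 0.10, adjusted p = 0.179). Some calls rested on 1 library, namely Arpc5 in WT on the second unstimulated one (adjusted p = 0.185 without it), and in Padi4 KO Actr2 on the second R848 library (0.150), Arpc2 on the first (0.107) and Arpc3 on either (0.653 and 0.11). Arpc3 in Padi4 KO was also lost with DESeq2 (0.333).

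The activators of nucleation and the elongators divided. Vasp, which shields growing ends from capping, had 1535 and 1401 CPM in unstimulated WT and 3505 and 3722 after R848, while Padi4 KO gave 1014 and 1059 unstimulated and 3156 and 3061 after stimulation. The stimulated pair lay above the unstimulated pair without overlap in both genotypes, a rise of 2.46-fold in WT (log2 1.30, SE 0.07) and 2.99-fold in Padi4 KO (log2 1.58, SE 0.07), the largest of the 43 genes in either. Vasp lies on chromosome 7 of GRCm38, from 19256929 to 19271817.
Hcls1, the blood cell relative of cortactin that stabilizes branches, had 634 and 609 CPM in unstimulated WT and 1053 and 1145 after R848, while Padi4 KO gave 451 and 459 unstimulated and 952 and 914 after stimulation. It rose in both, by a log2 fold change of 0.82 (SE 0.09) and 1.04 (SE 0.08), and in Padi4 KO past 2-fold. The formins Fmnl1 and Diaph1 rose as well, by 0.64 and 0.46 in WT and 0.74 and 0.54 in Padi4 KO, but with library size alone Diaph1 did not pass in either (0.15 and 0.17, adjusted p = 0.237 and 0.129).
Was, the Wiskott-Aldrich protein that switches on Arp2/3 below Cdc42, and Wipf1, the partner that protects it from degradation, passed downward in WT at -0.36 (SE 0.13, adjusted p = 0.0334) and -0.43 (SE 0.14, adjusted p = 0.0132). In Padi4 KO they gave 0.09 and -0.13 and did not pass, and the difference between the genotypes did not pass for either, so no difference in response is shown. The fall of Was was not called without either R848 library of WT or the second unstimulated one, with adjusted p-values of 0.142, 0.638 and 0.427, nor without either R848 library of Padi4 KO, at 0.174 each, nor with DESeq2 (0.334), RLE factors (0.11) or separate models per genotype (0.233). The fall of Wipf1 was not called without either R848 library of WT, with adjusted p-values of 0.128 and 0.370, nor with DESeq2 (0.219) or separate models (0.128). Wasf2, the WAVE protein below Rac, passed upward in Padi4 KO at 0.45 (SE 0.11) and gave 0.21 in WT. Without the second R848 library of Padi4 KO its rise was only 0.28. Its call was lost with library size alone and with DESeq2, where the adjusted p was 0.105.
Evl was near the floor throughout. It had 3 and 5 counts in unstimulated WT and 0 and 0 after R848, while Padi4 KO gave 10 and 15 unstimulated and 6 and 5 after stimulation. Against a floor of 3 counts over the WT group after R848, it was at least 2.29-fold lower than in unstimulated WT, a call lost without the second library of either WT group (adjusted p = 0.101 and 0.125). In Padi4 KO its fall of 2.19-fold had an adjusted p of 0.0988, which exceeded 0.1 without either unstimulated or either R848 library of Padi4 KO, at 0.139 to 0.252, and with DESeq2, at 0.462.

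The proteins that bundle, sever and cross-link filaments included changes of more than 2-fold in opposite directions. Lcp1, the leukocyte plastin that packs filaments into bundles (chromosome 14, from 75131101 to 75230842), had 3838 and 3962 CPM in unstimulated WT and 9293 and 8464 after R848, while Padi4 KO gave 3178 and 3209 unstimulated and 7059 and 6872 after stimulation. It more than doubled in both genotypes, 2.28-fold in WT (log2 1.19, SE 0.06) and 2.18-fold in Padi4 KO (log2 1.12, SE 0.06). Gsn, the calcium-activated severing and capping protein gelsolin (chromosome 2, from 35256380 to 35307892), had 905 and 833 CPM in unstimulated WT and 206 and 184 after R848, while Padi4 KO gave 567 and 586 unstimulated and 163 and 161 after stimulation. All 4 stimulated libraries lay far below all 4 unstimulated ones, a fall of 4.47-fold in WT (log2 -2.16, SE 0.11) and 3.57-fold in Padi4 KO (log2 -1.84, SE 0.10).
Within a library, Gsn gave 23.6 and 21.0 reads per 100 reads of Lcp1 in unstimulated WT and 2.22 and 2.17 after R848, while Padi4 KO gave 17.9 and 18.3 unstimulated and 2.30 and 2.34 after stimulation. This ratio does not depend on any scaling between libraries, and it fell in both genotypes without overlap. The stromal and endothelial marker sum fell with Gsn in both genotypes. Within it the stromal markers Col1a1, Col1a2 and Sparc fell, while the endothelial marker Pecam1 overlapped between the treatments in each genotype. The other endothelial markers were near or at 0, so no endothelial fall is shown. The megakaryocyte and platelet marker sum went from 219 to 325 down to 71.8 to 73.8 CPM (of library totals) in WT. In Padi4 KO it went from 384 to 389 down to 95.9 to 108. The part of these markers in the fall of Gsn, a gene that such cells also express, was not tested.
Coro1a had 3020 and 2782 CPM in unstimulated WT and 3260 and 3516 after R848, while Padi4 KO gave 2093 and 2008 unstimulated and 2987 and 2899 after stimulation. It passed upward in both genotypes, at 0.22 in WT, a value that turned to -0.082 with library size alone and had an adjusted p of 0.163 without the second unstimulated library, and at 0.52 in Padi4 KO. Capg, a capping protein of macrophages and neutrophils, passed in Padi4 KO at 0.48, though not with library size alone, and gave 0.22 in WT. Flna, the filamin that cross-links filaments into gels, passed downward in WT at -0.22 (SE 0.07, adjusted p = 0.00667), a call that went without either R848 library of either genotype, at adjusted p-values of 0.255 to 0.409, and with DESeq2 (0.169) or separate models (0.433). Actn1 and Actn4, the non-muscle alpha-actinins, passed in neither genotype.

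The contractile and linker genes changed by less than 2-fold, apart from Msn. Of the 4 genes of non-muscle myosin II, Myl12a, a regulatory light chain, passed upward in both genotypes at 0.39 and 0.59 (SE 0.11 and 0.10), and in WT not without the first unstimulated library, at 0.25 with an adjusted p of 0.202, or with library size alone. Myl12b, the other regulatory light chain, had 741 and 769 CPM in unstimulated WT and 725 and 726 after R848, while Padi4 KO gave 475 and 542 unstimulated and 657 and 643 after stimulation. The WT pairs lay close together and the Padi4 KO pairs apart, and the value was -0.06 in WT and 0.35 in Padi4 KO, which passed but turned to -0.031 with library size alone and did not pass without either R848 library (adjusted p = 0.232 and 0.109). Myh9, the heavy chain, gave -0.03 in WT and 0.12 in Padi4 KO, and Myl6, the essential light chain with a CArG box, -0.08 and 0.12; neither passed.
Msn, the moesin that ties filaments to the membrane (chromosome X, from 96096042 to 96168552), had 1257 and 1235 CPM in unstimulated WT and 2935 and 2458 after R848, while Padi4 KO gave 1026 and 1037 unstimulated and 2284 and 2345 after stimulation. It rose 2.16-fold in WT (log2 1.11, SE 0.07) and 2.24-fold in Padi4 KO (log2 1.17, SE 0.07). Ezr, its close relative ezrin, did not pass, at -0.19 (SE 0.13) and -0.17 (SE 0.11). In reads within a library, Ezr stood at 25.0 and 22.5 per 100 reads of Msn in unstimulated WT and 8.28 and 11.2 after R848, while Padi4 KO gave 20.6 and 21.0 unstimulated and 8.28 and 8.26 after stimulation. Vcl, the vinculin of adhesion sites, passed upward in both at 0.28 and 0.48 but turned to -0.025 in WT with library size alone and did not pass there without the second unstimulated library (adjusted p = 0.226), nor in Padi4 KO with library size alone. Tln1, the talin that activates integrins, passed in Padi4 KO at 0.34 (SE 0.07, turning to -0.033 with library size alone, and with an adjusted p of 0.402 without the second R848 library) and gave 0.08 in WT.

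Rhoa and Cdc42 passed upward in both genotypes, at 0.64 and 0.60 in WT and 0.77 and 0.58 in Padi4 KO (SE 0.08 to 0.09), while Rac1 gave 0.13 in WT and passed in Padi4 KO at 0.20 (adjusted p = 0.0973), a value lost when any library other than the first unstimulated of WT was left out and turned to -0.17 with library size alone. Dock8, an activator of Cdc42 that leukocytes need to squeeze through dense tissue, had 750 and 747 CPM in unstimulated WT and 435 and 434 after R848, while Padi4 KO gave 562 and 603 unstimulated and 344 and 412 after stimulation. It fell in both genotypes without overlap, by a log2 fold change of -0.79 in WT (SE 0.10) and -0.63 in Padi4 KO (SE 0.09).
Dock2, the activator of Rac in blood cells (chromosome 11, from 34226815 to 34783892), had 478 and 499 CPM in unstimulated WT and 574 and 561 after R848, while Padi4 KO gave 360 and 359 unstimulated and 616 and 597 after stimulation. The unstimulated Padi4 KO libraries were the lowest and the stimulated ones the highest of the 8, and the response passed in Padi4 KO (0.75, SE 0.09) and not in WT (0.22, SE 0.10, adjusted p = 0.109). Per 100 reads of Dock2, those of Dock8 went from 157 and 150 to 75.8 and 77.3 in WT and from 156 and 168 to 55.8 and 68.9 in Padi4 KO.

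**Figure D3:**
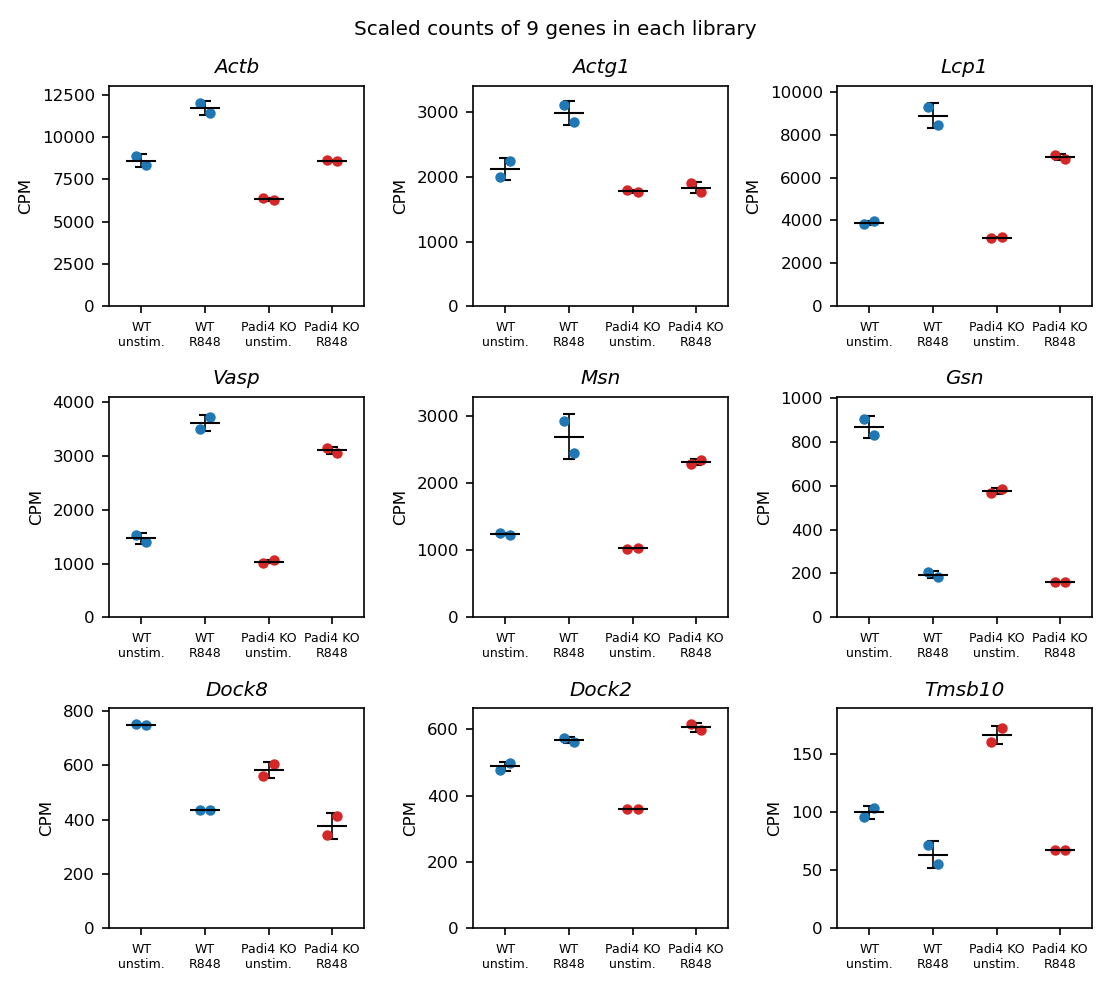
Scaled counts (CPM, linear axis from 0) of 9 genes in the 4 groups; points are single libraries, blue for WT and red for Padi4 KO, and bars give the mean and SD of 2 libraries. Lcp1, Vasp and Msn rise and Gsn and Dock8 fall in both genotypes, Actg1 rises in WT only by the test, and Tmsb10 is highest in unstimulated Padi4 KO, at 160 and 172 CPM.

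The difference between the genotypes in the response to R848 was tested directly, by subtracting the WT value from that of Padi4 KO. It passed an adjusted p of 0.1 for 5 genes upward and 1 downward, where 3.44% of all genes passed upward and 1.26% downward. Among genes with at least 100 counts on average, 13.8% passed upward and 5.96% downward. The median difference of the 43 genes was 0.20, and that of all genes 0.18, so the list as a whole lay 0.017 from all genes.
Actg1 was the gene with the lower response in Padi4 KO, at -0.45 (SE 0.10, adjusted p = 0.000654 by edgeR). It passed in each of the 14 other fits, with values from -0.74 to -0.37, and its direction held under the 4 scalings tried. The 5 genes with a higher response in Padi4 KO were Dock2 at 0.54 (SE 0.13, adjusted p = 0.00538), Myl12b at 0.40 (SE 0.12, adjusted p = 0.0396), Coro1a at 0.30 (SE 0.10, adjusted p = 0.0528), Tmsb4x at 0.27 (SE 0.09, adjusted p = 0.0701) and Vasp at 0.28 (SE 0.10, adjusted p = 0.0959).
These 5 calls were not stable. With DESeq2, with the size factors of relative log expression, and without any 1 of the 4 R848 libraries, none of the 5 passed; DESeq2 gave 1 of the 43 genes upward at an unadjusted p below 0.05, and edgeR with relative log expression factors gave 2. Without an R848 library the median difference of all genes moved from 0.18 to between -0.071 and -0.059, and the median of the 43 genes to between -0.088 and -0.048, with 1 to 8 genes then passing downward. The differences of Vasp (-0.032) and Coro1a (-0.026) changed sign without the first R848 library of WT, and that of Tmsb4x changed sign without the second (-0.041) or without the first R848 library of Padi4 KO (-0.037).
Ratios within a library, which need no scaling, gave the same picture for the 2 actins. Actg1 stood at 22.4 and 26.8 reads per 100 reads of Actb in unstimulated WT and 26.0 and 25.0 after R848, while Padi4 KO gave 28.2 and 28.0 unstimulated and 21.9 and 20.7 after stimulation. In WT the treatments overlapped, whereas in Padi4 KO both stimulated libraries were lower than both unstimulated ones.

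The comparison of Padi4 KO with WT without stimulation gave lower values for most of the list. At an adjusted p below 0.1, 38 of the 43 genes were lower and 1 higher in unstimulated Padi4 KO, where 14.4% of all genes tested were lower and 9.54% higher. Among genes with at least 100 counts, 53.6% were lower and 10.6% higher. The lower values included both actins, all 7 Arp2/3 subunits, all 4 myosin II genes, all 4 linkers, 6 of 7 bundling and severing genes, 6 of 8 activators and elongators and 4 of 5 monomer-binding genes, but with library size alone 15 genes stayed lower by the test and the sign changed for 6 of the 43, among them the called genes Actg1 (0.034), Cfl1 (0.096) and Msn (0.014). With DESeq2, 28 genes were lower and 1 higher, and Actg1, Cfl1, Arpc3, Was, Wipf1, Ezr, Msn, Dock8, Rhoa and Cdc42 did not pass. The call of Cfl1 was also lost whichever library was left out (adjusted p = 0.119 to 0.700), and those of Actg1, Msn, Wipf1 and Rhoa without any 1 of the 4 R848 libraries (0.102 to 0.315). The calls of Cdc42 (0.149 to 0.241), Lcp1 (0.120), Was (0.112 and 0.167) and Myl12a (0.104) were lost without 1 or more of the libraries.
The 43 genes had a median of -0.45 on the log2 scale, and all genes one of -0.16. The 43 genes lay -0.29 from all genes and -0.13 from the genes with at least 100 counts, and 40 of them lay below the median of all genes. With library size alone the 2 medians were -0.16 and 0.12. The neutrophil marker sum was lower in the same Padi4 KO libraries, although 2 of its markers went the other way. These were Csf3r (2260 and 2275 CPM of library totals against 2120 and 2167 in WT) and Cxcr2 (1385 and 1300 against 1140 and 1241). The erythroid, monocyte, stromal, and megakaryocyte and platelet marker sums were higher. The part of all these markers in the lower values of the 43 genes was not tested.

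Among the genes called lower, those furthest from zero were close to each other. Gsn was lower by a log2 fold change of -0.59 (SE 0.09), Tmsb4x by -0.59 (SE 0.06) and Arhgdib by -0.58 (SE 0.07). For Arhgdib, the CPM values were 2626 and 2617 in unstimulated WT and 1757 and 1745 in unstimulated Padi4 KO, and 2515 and 2499 against 1866 and 1902 after R848. Duplicates were close to each other and the genotypes did not overlap. The smallest values were those of Actn4 at -0.11 and Rac1 at -0.17, which did not pass. Evl, whose counts stand above, gave 0.75 (SE 0.60) and did not pass (adjusted p = 0.445).
Tmsb10 was higher in unstimulated Padi4 KO, by 1.68-fold (log2 0.75, SE 0.16, adjusted p = 3.49e-05), and it passed in each of the 14 other fits. With its relative Tmsb4x lower in the same libraries, the reads of Tmsb10 per 100 reads of Tmsb4x were 1.44 and 1.96 in unstimulated WT and 3.90 and 4.49 in unstimulated Padi4 KO. After R848 they were 1.06 and 0.917 in WT and 1.26 and 1.38 in Padi4 KO.

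After R848, 29 of the 43 genes were lower and 1 higher in Padi4 KO, against 7.84% and 9.44% of all genes tested and 34.4% and 9.82% of those with at least 100 counts. The median was -0.27 for the 43 genes and -0.0030 for all genes, a distance of -0.27, and against genes with at least 100 counts the distance was -0.11. With library size alone, 8 were lower and 3 higher, and the sign changed for 10 of the 43, of which Coro1a (0.012) and Msn (0.00096) were called with TMM. With DESeq2 the calls of Capg, Myl12a and Evl were lost. As without stimulation, the neutrophil marker sum was lower in the Padi4 KO libraries, at 102636 to 103287 CPM against 127335 to 141468. The erythroid sum was higher, at 1186 to 1211 against 19.4 to 24.6. Csf3r (1855 and 2053 CPM of library totals against 1501 and 1589 in WT) and Cxcr2 (798 and 844 against 703 and 671) again went against the neutrophil sum. The part of these markers in the lower values of the 43 genes was not tested. These values and the unstimulated ones rest on different libraries of each genotype, but they are not independent of the 2 responses, which share all 8 libraries with them.
Actg1 was lowest, at -0.70 (SE 0.07, adjusted p = 1.09e-21), followed by the Arp2/3 subunits Actr3 at -0.53 (SE 0.07) and Arpc2 at -0.49 (SE 0.08); the 3 passed under every alternative tried. For Actr3 the CPM values after R848 were 2443 and 2088 in WT and 1577 and 1560 in Padi4 KO, and for Arpc2 they were 1488 and 1442 in WT and 1089 and 994 in Padi4 KO. Neither gene's genotypes overlapped. Tmsb10 at 0.10, Dock2 at 0.10, Was at -0.01, Wasf2 at 0.01 and Actn4 at 0.17 were closest to or above zero and did not pass.
The gene called higher was Evl, absent from both WT libraries (0 and 0 counts) and present in both of Padi4 KO (6 and 5), at least 1.75-fold higher against a floor of 3 counts over the WT group. Without single libraries the calls of Arpc3 (adjusted p = 0.287), Capg (0.108 to 0.281), Myl12a (0.149) and Myl6 (0.163) were lost. That of Evl was lost without either WT library, at adjusted p-values of 0.203 and 0.242, and without the first Padi4 KO library, at 0.122.

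**Figure D4:**
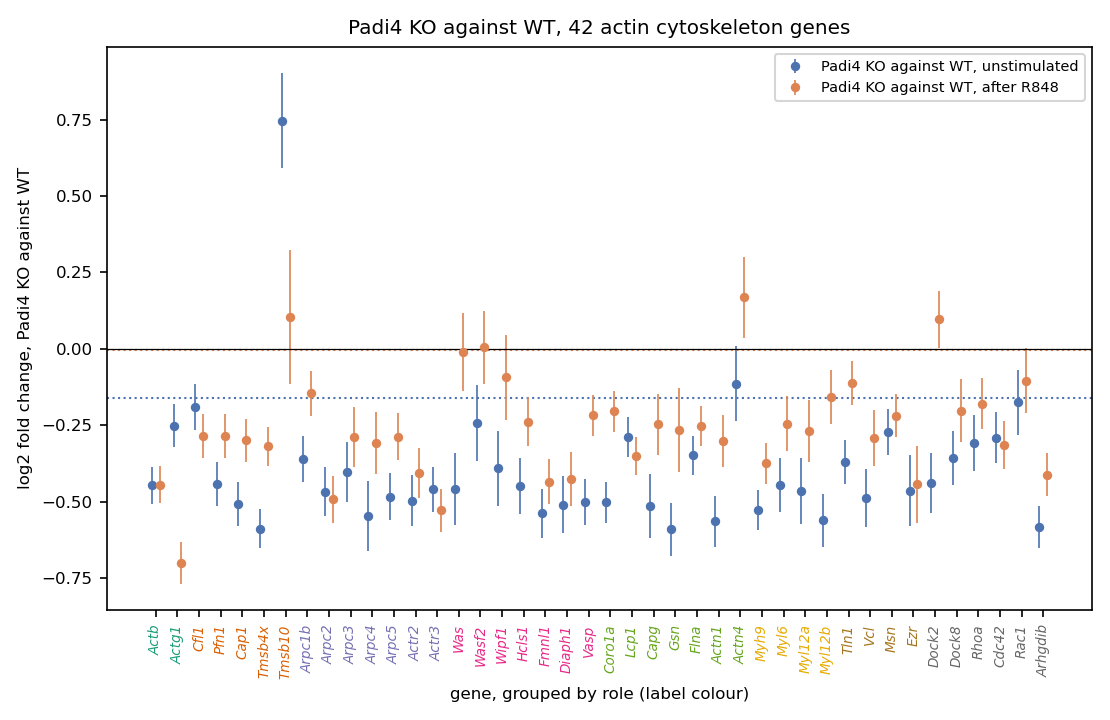
The log2 fold change of Padi4 KO against WT with its standard error for 42 genes in order of role, unstimulated (blue) and after R848 (orange); Evl is left out. Dotted lines are the medians of all genes with at least 10 counts, -0.16 and -0.0030. Nearly all points lie below zero under TMM scaling, with Tmsb10 alone well above it without stimulation and Actg1 lowest after R848.

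**Figure D5:**
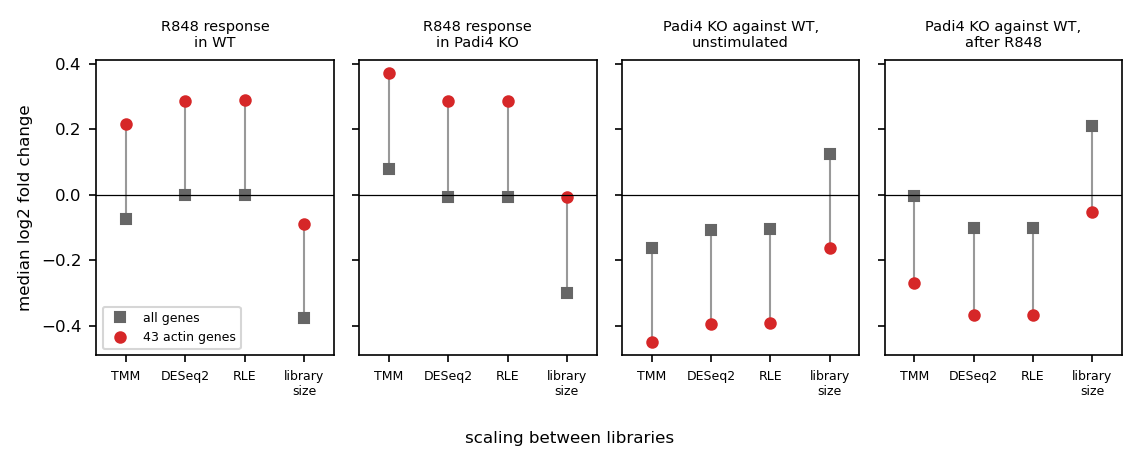
Median log2 fold change of the 43 genes (red circles) and of all genes with at least 10 counts (grey squares) in 4 comparisons, under TMM, DESeq2 and RLE size factors and library size alone. The medians shift with the scaling, and with library size alone the responses of the 43 genes fall to -0.089 and -0.0057; a scaling moves every gene by the same amount, so both medians shift together by construction.

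A wider list of 126 other actin regulators, of which 122 were tested, was examined for the same comparisons. The WT response passed upward for 40 and downward for 26 of them, where 13.5% and 16.0% of all genes and 43.5% and 25.5% of those with at least 100 counts passed. That of Padi4 KO passed for 58 and 21, against 19.2% and 15.9% of all genes and 53.0% and 20.6% of the abundant ones. As shares of the 122, these counts were 32.8% and 21.3% in WT and 47.5% and 17.2% in Padi4 KO. Between the genotypes, 58 (47.5%) were lower and 5 (4.10%) higher in Padi4 KO without stimulation, against 14.4% and 9.54% of all genes and 53.6% and 10.6% of the abundant ones. After R848, 29 (23.8%) were lower and 9 (7.38%) higher, against 7.84% and 9.44% of all genes and 34.4% and 9.82% of the abundant ones. In all 4 comparisons the larger of the 2 shares lay above that of all genes and below that of the abundant genes. With library size alone these counts became 23 and 33 in the WT response, 35 and 35 in that of Padi4 KO, 22 lower and 7 higher without stimulation, and 8 lower and 17 higher after R848, so their balance followed the scaling as that of the 43 genes did.
Among these regulators with at least 10 counts on average, the largest rises were those of Marcksl1 and Marcks, which bind filaments and the membrane under the control of protein kinase C. Marcksl1 had 97.4 and 109 CPM in unstimulated WT and 2723 and 2400 after R848, while Padi4 KO gave 70.1 and 78.3 unstimulated and 2092 and 2017 after stimulation, or 24.9-fold and 27.4-fold. Its relative Marcks rose 4.82-fold in WT and 6.37-fold in Padi4 KO. The small GTPases Rhof and Rhoq rose by a log2 fold change of 2.07 (SE 0.23) and 1.84 (SE 0.55) in WT and 2.12 (SE 0.18) and 2.52 (SE 0.39) in Padi4 KO. These rises exceeded any among the 43 genes.
Arhgap15, which switches Rac off, fell 6.12-fold in WT and 6.80-fold in Padi4 KO, from 69 and 60 counts to 11 and 7 and from 62 and 100 to 15 and 8. Arhgef6, an exchange factor for Rac and Cdc42, and Elmo2, a partner of the Dock proteins, fell 3.38-fold and 3.16-fold in Padi4 KO, and also passed downward in WT, at log2 fold changes of -1.93 (SE 0.23) and -1.78 (SE 0.31). Diaph3 and Tpm1, which also passed downward in WT, had only 7 and 8 and 6 and 6 counts there unstimulated, and 0 and 1 and 2 and 0 after R848. Their average over all libraries reached 10 counts only through Padi4 KO. The fall of Tpm1 was lost without the second R848 library or either unstimulated library of WT (adjusted p = 0.107 to 0.502).
The difference of response, Padi4 KO minus WT, was positive for 13 of these 122 and negative for 0 at an adjusted p below 0.1 by edgeR (34 and 2 at an unadjusted p below 0.05), where 3.44% and 1.26% of all genes and 13.8% and 5.96% of those with at least 100 counts passed. A positive difference did not always go with a larger response, since 6 of the 13 had passed downward in WT. Among these 6, Diaph3 and Tpm1 gave -0.15 and 0.58 in Padi4 KO and did not pass there. With DESeq2 both counts were 0 (7 and 1 unadjusted), and with RLE factors they were 3 and 1. Limk2, the kinase that switches cofilin off, had 99.0 and 112 CPM in unstimulated WT and 129 and 120 after R848, while Padi4 KO gave 50.9 and 55.1 unstimulated and 123 and 127 after stimulation. Its unstimulated Padi4 KO libraries stood apart below the other 6, at a difference of 0.99 (SE 0.25, adjusted p = 0.00620). It did not pass with DESeq2 (0.84, adjusted p = 0.272), nor without any 1 of the 4 R848 libraries (0.71 to 0.77, adjusted p = 0.158 to 0.184).
Without stimulation, Myh10, the non-muscle myosin heavy chain of many non-blood cells, and Daam1 and Parvb were higher in Padi4 KO. Myh10 had 10 and 7 counts in unstimulated WT and 39 and 57 in Padi4 KO, and 1 and 2 against 38 and 35 after R848. It reached the minimum of 10 counts on average only through Padi4 KO, so its naming is not independent of the genotype difference. Daam1, a formin, had 15.5 and 15.5 CPM in unstimulated WT and 35.0 and 42.1 in Padi4 KO. The call of Parvb, a parvin of adhesion sites, was lost without either unstimulated library of Padi4 KO (adjusted p = 0.102 and 0.268) or the second of WT (0.615). Fmnl2 and Dock11 were lower in Padi4 KO at log2 fold changes of -1.11 (SE 0.23) and -1.10 (SE 0.17). After R848, the kinases Rock1 and Rock2, which drive myosin contraction, were lower at -1.10 each (SE 0.20 and 0.31), and Rhob at -0.83 (SE 0.15). The largest rises there were those of Tpm1 at 3.81 (SE 0.66), Diaph3 at 3.64 (SE 0.93) and Myh10 at 3.47 (SE 0.57). All of these had WT counts near the floor, so the size of these rises is uncertain. Rock2 did not pass without the first R848 library of WT (adjusted p = 0.132). The erythroid marker sum, given above, was higher in Padi4 KO in both treatments, as were the counts of Myh10, and its part in them was not tested.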

How the data were processed

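The authors trimmed reads with cutadapt 1.16, mapped them with STAR 2.5.3a and counted them with HTSeq 0.6.1p1, per the labels. The deposited values are raw counts per gene symbol; the annotation and strand setting are not given in the sources used here. HTSeq's summary lines were left out, which leaves 87.0% to 89.5% of the reads of each library. Genes with at least 1 count in at least 2 libraries were fitted in R 4.3.3 with edgeR 4.0.16 (TMM factors, 4 group means, robust quasi-likelihood test, Benjamini-Hochberg adjustment, calls at an adjusted p below 0.1). The estimated coefficient of variation between duplicates was 4.70%. Alternatives were DESeq2 1.42.0, RLE factors, library size alone, filterByExpr, no filter, a replicate block, separate models per genotype, and leaving out each library. The fit was tested on simulated counts in which 200 of 11930 genes changed 4-fold, up or down at random, in the WT R848 group. For the WT response edgeR called 177 of these 200 and 7 others, and for the difference of response 164 and 14 others. No shift in composition between libraries was simulated, so this test cannot speak to the dependence on scaling.

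The 43 genes and all other lists were chosen with earlier results of these data known. Values per library are given for the members among the 3 largest rises or falls past the threshold in any comparison, for Actb, for members past it in the difference of response and for Evl, with Hcls1 and Arpc4 added after their values were seen; other regulators were named as the 3 largest rises and falls with at least 10 counts on average. Same-numbered libraries did not deviate together (correlations from -0.019 to 0.021), so the main fit has no replicate block. Gene lengths and positions are from GENCODE on GRCm38 and promoters from RefSeq on GRCm38.p6.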

Additional observations from a re-analysis of the deposited data

Results flagged for a closer look

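The difference of response between the genotypes passed an adjusted p of 0.1 for 9 named genes (edgeR, adjusted over all genes tested), the test of the difference itself being the reason they are given. Of the 9, only Actg1 passed in every other fit. Tmsb4x, Vasp, Coro1a, Myl12b and Dock2 did not pass with DESeq2, with RLE factors or without any 1 of the 4 R848 libraries, and the first 3 changed sign without 1 of these. Limk2 did not pass with DESeq2 or without any 1 of the R848 libraries. The value was -0.45 for Actg1, 0.27 for Tmsb4x, 0.28 for Vasp, 0.30 for Coro1a, 0.40 for Myl12b and 0.54 for Dock2. Among the other actin regulators it was 0.99 for Limk2, 3.35 for Diaph3 and 2.86 for Tpm1, the last 2 at 0 to 2 counts in each WT library after R848 and lost with RLE factors, at adjusted p-values of 0.127 and 0.125. Groups of 2 libraries are too small to set a single library against the rest of its group, but duplicates as pairs differed most in WT after R848, at a chi-square statistic of 1.67 per degree of freedom, the highest of the 4 groups.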

How the results depend on the processing

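Medians below are log2 fold changes over the 43 genes. With DESeq2, 3 genes were lower in the WT response and 0 were higher in the difference or in Padi4 KO after R848, and the medians were 0.29 in WT, 0.29 in Padi4 KO, 0.037 for the difference, -0.39 for Padi4 KO against WT unstimulated and -0.37 after R848. RLE factors gave 0.29, 0.29, 0.041, -0.39 and -0.37, with 0 genes higher in the difference. With library size alone, the WT response had 10 genes higher and 16 lower, 0 past 2-fold upward and a median of -0.089, the Padi4 KO response 13 and 14, 1 past 2-fold upward and -0.0057, the difference 1 higher and 0.13, Padi4 KO against WT 15 lower and -0.16 unstimulated, and 3 higher, 8 lower and -0.053 after R848. filterByExpr gave 1 gene past 2-fold downward in WT, medians of 0.17 and 0.34 for the responses and 0 genes higher after R848; separate models gave 4 lower and a median of 0.34 in WT.

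With library size alone, called values changed sign in the WT response for Pfn1 (-0.13), Arpc5 (-0.081), Actr2 (-0.038), Coro1a (-0.082) and Vcl (-0.025), in the Padi4 KO response for Pfn1 (-0.046), Tmsb4x (-0.012), Arpc3 (-0.069), Actr2 (-0.015), Actr3 (-0.0057), Myl12b (-0.031), Tln1 (-0.033) and Rac1 (-0.17), unstimulated for Actg1 (0.034), Cfl1 (0.096) and Msn (0.014), and after R848 for Coro1a (0.012) and Msn (0.00096). Without the first R848 library of WT the difference became -0.032 for Vasp and -0.026 for Coro1a, and for Tmsb4x it became -0.041 without the second and -0.037 without the first R848 library of Padi4 KO. Without the second unstimulated WT library the difference was 0.42 for Tmsb4x and 0.36 for Coro1a.

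Leaving out each library in turn gave, in WT, 18 to 27 genes higher (3 to 4 past 2-fold), 2 to 7 lower (1 to 2 past 2-fold) and a median of 0.19 to 0.35; in Padi4 KO, 22 to 29 higher (2 to 4 past 2-fold), 3 to 7 lower (2 to 3 past 2-fold) and 0.23 to 0.40; for the difference, 0 to 4 higher, 1 to 8 lower and -0.088 to 0.17; unstimulated, 1 to 1 higher, 31 to 37 lower and -0.43 to -0.30; after R848, 0 to 1 higher, 28 to 33 lower and -0.39 to -0.26. With the replicate block the counts were 22 higher and 7 lower in WT, 29 and 3 in Padi4 KO, 5 and 1 for the difference, 1 and 38 unstimulated and 1 and 29 after R848, and 136 of 137 called values of single genes kept their call, the exception being Evl in Padi4 KO. Where a lone library was left in a group, its spread was taken from the other groups.

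Groups of 2 libraries of 562446 to 1177972 counts limit the precision for Evl and Tmsb10 and for the low regulators Diaph3, Tpm1 and Myh10.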
